A study of Drosophila melanogaster with 3 samples.

Results

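The genes described here encode the proteins of the cytosolic ribosome of Drosophila melanogaster. They were chosen by name among the genes of the deposited peak-to-feature tables. Those tables list only genes paired with a peak of false discovery rate (FDR) at most 0.2 in some array, so membership also required such a peak. A gene belonged if its name there began with RpL, RpS or RpLP and a digit, so that the mitochondrial mRp genes stayed out. This gave 77 genes of the 12207 in those tables, 46 for the large subunit, including the stalk proteins RpLP0 and RpLP2, and 31 for the small subunit. They lie on 2L (14 genes), 2R (18), 3L (10), 3R (20), 4 (1) and X (14). Of the current gene symbols that meet the rule, 6 stand in the tables under another name, among them RpS2 as sop and RpL10 as Qm. Another 9, among them RpL8 and RpLP1, are absent from those tables and were not analysed here.

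Ribosomal proteins surround the ribosomal RNA and hold the subunits in the shape needed for translation. The large subunit forms peptide bonds and passes the new chain through an exit tunnel, its flexible stalk recruits the translation factors, and the small subunit decodes the mRNA. In flies the genes are scattered over the genome, are short, and are transcribed strongly in growing cells from promoters with a characteristic pyrimidine-rich start. Many are known as Minute loci, at which loss of a single copy slows development.

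The study asked where in the genome 3 insulator binding sites make contact, using circular chromosome conformation capture (4C). S2-DRSC cells, an embryonic fly line grown without any labelled treatment, were fixed with formaldehyde, their chromatin was cut with DpnII and ligated, and DNA joined to a bait was amplified by inverse PCR. BaitA lies at 3R:91997-92920, BaitB at 2L:8485115-8485894 and BaitC at 3R:384440-385252. Each bait had 1 tiling array, with its 4C product in Cy5 and its own unligated, DpnII-cut genomic DNA in Cy3 as the background, so no value has a replicate error and the number of arrays limits the precision. By the file headers the BaitA and BaitB products were hybridised to the same slide at different times, and BaitC to another. Only DNA was measured, so the arrays hold no RNA level of any ribosomal protein gene and no marker by which to check the line.

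The level of a gene is the mean log2 ratio of 4C product over unligated DNA, on probes within 1 kb of its start sites, minus the median of the array. A difference is that level minus the median level of all genes on the same chromosome arm, with genes within 200 kb of the array's bait left out. Each member had 34 to 44 such probes, and 68 of the 77 had a single annotated start site. The median SD over the probes of a member was 1.88 in the BaitA array, 2.11 in BaitB and 1.21 in BaitC, against 1.95, 2.01 and 1.20 over all genes. These spreads are as wide as most differences between genes, and a ± below is always this SD over probes. Coordinates are of Drosophila Release 5.

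In none of the 3 arrays did the share of ribosomal protein genes above the median of their arm depart from 50% beyond its counting interval, and the share was highest in BaitA. In BaitA 47 of 77 members (61.0%, exact 95% interval 49.2 to 71.95%) were above the arm median, which 50% of all genes exceed, and their median difference was 0.56. That median was 0.46 within 0.5 kb of the start sites, 0.16 within 2 kb, 0.067 within 5 kb and 0.29 against genes within 500 kb. With the median of probes in place of the mean it was 0.79. In BaitB 40 of 76 members were above (52.6%, 40.8 to 64.2%, against 50% of all genes), with a median difference of 0.07. In BaitC 36 of 77 were above (46.8%, 35.3 to 58.5%, against 50%), with a median of -0.06. Each interval holds 50%, and it covers the counting of genes only. RpS13 has no difference in BaitB because it lies inside the zone left out around that bait.

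Members lay far apart from each other in each array. Their differences ran from -2.65 to 3.02 in BaitA, from -3.32 to 3.13 in BaitB and from -1.64 to 1.30 in BaitC. The SD over members was 1.51, 1.60 and 0.67, against 1.44, 1.47 and 0.76 over all genes. A difference of at least 1 (2-fold) above the arm median was reached by 27 members in BaitA, 26 in BaitB and 4 in BaitC, or 35.1%, 34.2% and 5.19%. The share of all genes was 25.5%, 26.1% and 9.54%. At least 1 below were 18, 17 and 7 members, or 23.4%, 22.4% and 9.09%, against 25.4%, 26.4% and 9.44% of all genes. The excess of high members in BaitA depended on the window. Within 0.5 kb of the start sites 34 members (44.2%) reached 1, beside 30.8% of all genes. Within 2 kb 16 members (20.8%) did, beside 19.0% of all genes, and within 5 kb 5 did (6.49%), beside 10.4%. With the median of probes in place of the mean, 36 members (46.8%) reached 1 in BaitA, beside 34.1%. In BaitB 15 members (19.7%) still reached 1 within 5 kb, beside 11.0% of all genes. Within 0.5 kb the BaitB members at least 1 below were 27 (35.5%), beside 31.0% of all genes, the other way round from the 1 kb window.

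**Figure D1:**
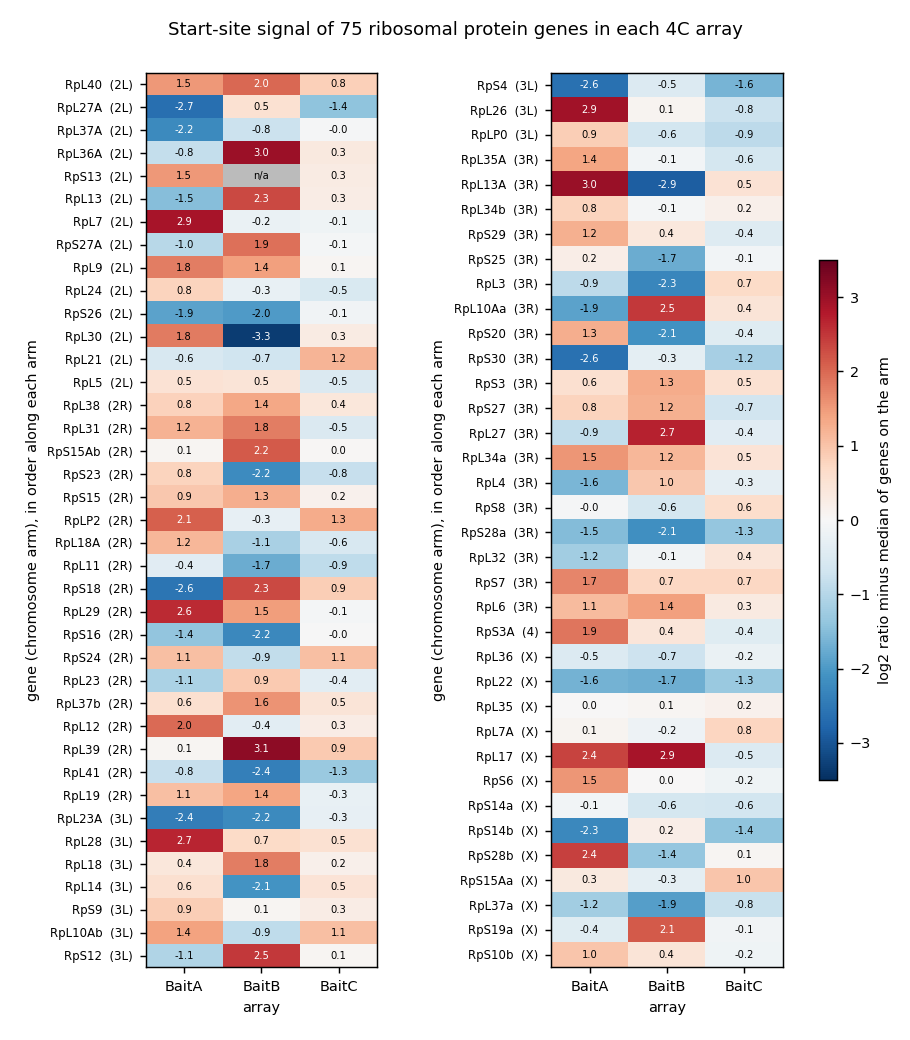
Difference of 75 of the 77 ribosomal protein genes from the median of its chromosome arm (log2) in the BaitA, BaitB and BaitC arrays, with genes in order along each arm and the value printed in each cell. Red is above and blue below the arm median, and the grey cell is RpS13, inside the zone left out around BaitB. BaitA and BaitB span -3.32 to 3.13, BaitC only -1.64 to 1.30.

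Among the large-subunit genes the median difference was 0.56 in BaitA (29 of 46 above), 0.00 in BaitB (23 of 46) and 0.11 in BaitC (24 of 46). By difference from the arm median the highest member of the BaitA array was RpL13A (3R:1450221-1451591), whose mammalian counterpart is known for a separate role in translational control. Its level was 3.40 ± 0.52 in BaitA, -2.70 ± 1.77 in BaitB and 0.77 ± 0.97 in BaitC. It was thus also the second lowest member of the BaitB array, with a difference of -2.88 there and 3.02 in BaitA. Its probes were unusually even in BaitA: 0.52 was the lowest SD of any member in that array.

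Next by difference in the BaitA array came RpL26 and RpL7, although the level of RpL7 was above that of RpL13A. RpL26 (3L:18892419-18892869), one of the proteins at the rim of the exit tunnel, was at 3.33 ± 1.38 in BaitA, 0.30 ± 3.03 in BaitB and -0.54 ± 1.48 in BaitC. RpL7 (2L:10201229-10202058) was at 3.58 ± 2.59 in BaitA, 1.27 ± 3.26 in BaitB and 0.05 ± 2.24 in BaitC. In BaitA they were above their arm medians by 2.93 and 2.88, and in the other arrays neither exceeded 0.11. The SDs of RpL7 in BaitB and BaitC were the widest of any member there. By difference RpL28 (3L:3221184-3221974) followed, with levels of 3.08 ± 1.56, 0.86 ± 2.78 and 0.76 ± 0.94, above its arm median in all 3 arrays. RpL29 (2R:17181564-17181864) was at 3.20 ± 2.45, 2.03 ± 2.00 and 0.11 ± 1.59, high in BaitA and BaitB and at the arm median in BaitC.

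By difference the highest large-subunit genes of the BaitB array were different ones. RpL36A, on the arm of the bait and 442 kb from it, was second among them with a difference of 3.00 in BaitB. RpL39 (2R:19949466-19949913), a very small protein inside the exit tunnel, was at 0.64 ± 1.98 in BaitA, 3.68 ± 0.92 in BaitB and 1.07 ± 1.08 in BaitC. Its difference of 3.13 in BaitB was the largest of any member there, and with 0.06 and 0.91 it was above its arm median in all 3 arrays. RpL17 (X:6635809-6637171), also at the exit tunnel, was at 1.98 ± 1.69, 2.57 ± 2.14 and -0.02 ± 1.56. On X, whose genes had median levels of -0.40 in BaitA and -0.33 in BaitB, these are differences of 2.38 and 2.90, and RpL17 had the highest mean difference over the arrays, 1.60. RpL27 (3R:21509816-21510224) was at -0.47 ± 1.26, 2.89 ± 1.57 and -0.13 ± 1.28, high in BaitB alone. RpL40 (2L:4228024-4228411), made as a fusion with ubiquitin that is then cleaved off, was at 2.22 ± 2.63, 3.52 ± 0.69 and 1.02 ± 1.15. It was above its arm median in each array, with differences of 1.52, 2.02 and 0.83. RpL10Aa and RpL13, with differences of 2.48 and 2.31 in BaitB, exceeded RpL40 there.

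RpL27A was the lowest large-subunit gene by difference in both BaitA and BaitC, and another gene was in BaitB. RpL27A (2L:4457380-4458291) was at -1.95 ± 1.39 in BaitA, 2.03 ± 1.53 in BaitB and -1.22 ± 0.83 in BaitC, and its differences were -2.65, 0.53 and -1.41. RpL30 (2L:19008374-19009115), whose yeast counterpart binds its own transcript, was the lowest in BaitB by difference: its levels were 2.51 ± 1.00, -1.82 ± 2.41 and 0.48 ± 0.72, and its differences 1.81, -3.32 and 0.29. RpL3 (3R:7047651-7050572), which reaches towards the site of peptide bond formation, was at -0.54 ± 1.98, -2.11 ± 0.99 and 0.94 ± 0.85.

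The large-subunit genes with the lowest mean differences were below the arm median in every array, though not far below it in each. RpL23A (3L:1667345-1668626), another protein of the tunnel exit, was at -2.01 ± 1.22 in BaitA, -2.05 ± 1.15 in BaitB and -0.09 ± 1.93 in BaitC. RpL22 (X:656757-659128), an RNA-binding protein of the subunit surface, was at -2.04 ± 1.84, -2.05 ± 1.75 and -0.84 ± 1.14. RpL41 (2R:20791245-20791415), whose product is a short peptide, was at -0.22 ± 1.06, -1.84 ± 2.43 and -1.14 ± 1.46. All of them were below the arm median in each array, with mean differences of -1.65, -1.55 and -1.50. In BaitC RpL23A was below by only 0.30. Against genes within 500 kb, RpL23A in BaitC and RpL41 in BaitA were slightly above, by 0.05 and 0.10. The low values of RpL23A in BaitA and BaitB held for the 1 kb window: within 5 kb its difference was 0.0089 in BaitA and -0.22 in BaitB.

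RpLP2 and RpLP0 build the stalk with which the ribosome calls in elongation factors. RpLP2 (2R:12473727-12474069) was at 2.68 ± 2.14 in BaitA, 0.26 ± 1.89 in BaitB and 1.46 ± 1.23 in BaitC, the highest BaitC difference of any member at 1.30. RpLP0 (3L:22069387-22070415), the base of the stalk, was at 1.26 ± 1.64, -0.45 ± 2.38 and -0.71 ± 1.17. Both were above the arm median in BaitA and below it in BaitB, and they took opposite sides in BaitC, where RpLP0 differed by -0.92. By difference RpLP2 was followed in the BaitC array by RpL21 (2L:22247225-22247705), at a level of 1.38 ± 0.88. RpL21 was at 0.13 ± 2.52 in BaitA and 0.79 ± 1.77 in BaitB.

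Small-subunit genes had a median difference of 0.34 in BaitA (18 of 31 above), 0.14 in BaitB (17 of 30) and -0.12 in BaitC (12 of 31). RpS12 (3L:13016608-13017737), which in flies is needed for the elimination of Minute cells by their neighbours, was at -0.67 ± 1.97 in BaitA, 2.68 ± 2.41 in BaitB and 0.29 ± 0.95 in BaitC. RpS4 (3L:13035111-13036927), 18.5 kb away by start site, was at -2.22 ± 0.70, -0.30 ± 2.93 and -1.42 ± 1.06. RpS4 was thus below its neighbour in all 3 arrays, and with a difference of -1.64 it was the lowest member in BaitC. RpS18 (2R:16151612-16152267), at the head of the small subunit, was at -1.98 ± 1.23, 2.87 ± 2.49 and 1.03 ± 1.12, low in BaitA and high in both other arrays.

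RpS30 (3R:16676587-16677073), made in mammals as a fusion with a ubiquitin-like protein, was at -2.23 ± 1.51, -0.16 ± 2.88 and -0.88 ± 1.08. RpS16 (2R:18493662-18495405), whose tail reaches the decoding site, was at -0.80 ± 2.43, -1.69 ± 1.64 and 0.14 ± 1.77. RpS24 (2R:18528204-18528600), 34.9 kb from RpS16, was at 1.64 ± 2.02, -0.32 ± 2.11 and 1.22 ± 1.34, the higher of these neighbours in each array. RpS3A, the only member on chromosome 4 (4:86898-87806), was at 3.00 ± 0.91 in BaitA, 0.61 ± 2.31 in BaitB and 0.15 ± 0.99 in BaitC. Genes of chromosome 4 had median levels of 1.12, 0.18 and 0.58, so RpS3A was above its arm in BaitA and BaitB and below it in BaitC. RpS3, RpS7 and RpS9, which were not among the extremes and are named after their values were seen, were above the arm median in each array, with BaitA levels of 0.95, 2.10 and 1.25.

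Across the 3 arrays 15 of the 76 members with a value in each (19.7%) were above the arm median every time, beside 16.2% of all genes. Below it every time were 13 members (17.1%), beside 16.5% of all genes. Both shares lie near the background. The first group holds RpL6, RpL9, RpL18, RpL28, RpL34a, RpL35, RpL37b, RpL38, RpL39, RpL40, RpS3, RpS7, RpS9, RpS15 and RpS15Ab. The second holds RpL11, RpL22, RpL23A, RpL36, RpL37A, RpL37a, RpL41, RpS4, RpS14a, RpS16, RpS26, RpS28a and RpS30.

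Duplicated ribosomal protein genes gave pairs that encode nearly the same protein at different places. RpL37a (X:15032803-15033287) and RpL37b (2R:18987626-18987896), now named RpL37-1 and RpL37-2, were the furthest apart of these pairs by level in BaitB. By level the RpL10A copies were the furthest apart in BaitA and the RpS28 copies in BaitC. By difference from the arm median the RpS28 copies were the furthest apart in BaitA too, at -1.52 and 2.39, beside -1.88 and 1.42 for the RpL10A copies. RpL37a was at -1.62 ± 1.96 in BaitA, -2.26 ± 0.99 in BaitB and -0.31 ± 1.41 in BaitC. RpL37b was at 1.15 ± 1.92, 2.12 ± 0.81 and 0.62 ± 0.80, so that it was the higher copy in every array, by 4.37 in BaitB. Part of that gap is the lower median of X: the differences in BaitB were -1.93 for RpL37a and 1.56 for RpL37b. RpL10Aa (3R:10863144-10863795) was at -1.50 ± 2.13, 2.66 ± 2.33 and 0.71 ± 1.31, while RpL10Ab (3L:11815985-11817250) was at 1.82 ± 1.42, -0.70 ± 1.57 and 1.28 ± 1.37. These copies swapped order between BaitA and BaitB.

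The other pairs were measured likewise. RpS28a (3R:25848125-25848320) was low in each array, at -1.14 ± 2.76, -1.97 ± 1.96 and -1.07 ± 0.92, and had the lowest mean difference of all members, -1.67. Its paralogue RpS28b (X:9448742-9448940) was at 1.99 ± 1.68, -1.68 ± 1.41 and 0.54 ± 1.65. RpS15Aa (X:13230017-13230410) was at -0.05 ± 2.45, -0.67 ± 2.26 and 1.43 ± 0.92, beside RpS15Ab (2R:6709317-6709710) at 0.64 ± 1.72, 2.71 ± 1.55 and 0.20 ± 1.34. RpL34a (3R:21884215-21884766) at 1.92 ± 1.88, 1.34 ± 2.55 and 0.74 ± 1.15 exceeded RpL34b (3R:5226158-5226728) at 1.18 ± 1.95, 0.10 ± 2.15 and 0.45 ± 1.25 in each array by less than the SD over probes. Over the 6 pairs the 2 copies lay on opposite sides of their arm medians in 3 pairs in BaitA, 5 in BaitB and 2 in BaitC. Opposite sides are common for any genes: of all pairs at most 100 kb apart, 51.8%, 53.0% and 51.7% took the same side. Among the copies only those of RpS14 lie so close. No share was computed for unrelated pairs on different arms, so no divergence of the copies is read from these counts. Whether the probes tell near-identical copies apart was not tested.

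Neighbours along the chromosome were also set side by side. There were 10 pairs of neighbouring members with start sites at most 100 kb apart, and 5 in BaitA, 4 in BaitB and 6 in BaitC had both genes on the same side of the arm median. Over all pairs of genes at most 100 kb apart the share on the same side was 51.8%, 53.0% and 51.7%, so the counts of members lie near the background. The member pairs were closer, at a median of 20.9 kb against 44.4 kb in BaitA. RpS14a (X:7828066-7828581) and RpS14b (X:7829235-7829750) are tandem copies 1.17 kb apart by start site, so that their windows share probes. Their levels were -0.49 ± 2.25 and -2.66 ± 0.96 in BaitA, -0.94 ± 1.60 and -0.11 ± 1.13 in BaitB, and -0.17 ± 1.05 and -0.95 ± 1.00 in BaitC. RpL12 (2R:19948060-19948878), at the base of the stalk, starts 1.85 kb from RpL39 and was at 2.56 ± 1.14, 0.20 ± 1.78 and 0.44 ± 1.21. RpL12 was the higher of the pair in BaitA by 1.91, and RpL39 was higher in BaitB by 3.49.

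The probe values along single genes had the form of plateaus with abrupt edges. Around RpL13A the BaitA values stayed on one plateau through the whole start-site window. Around RpL7 a BaitA plateau ended inside the gene: a peak just upstream of the start (2L:10200754-10201228) averaged 5.70 ± 0.33 over 9 probes in BaitA and -2.35 in BaitB. Inside the RpL7 span a BaitC peak (2L:10201634-10201833) averaged 4.61 ± 1.08 over 4 probes, where BaitB averaged 4.81 and BaitA 0.76. The mean of a window therefore depends on which plateaus it takes in. In BaitA the difference of RpL13A was 1.71 within 5 kb of the start site, that of RpL26 0.53, that of RpL7 0.07 and that of RpL28 0.38. Some changed side: RpL17 and RpL30 were at -0.26 and -0.42 in BaitA within 5 kb, RpL40 at -1.15 and RpS16 at 0.21 in BaitB, RpL37a at 0.64 in BaitA and RpS28a at 0.16 in BaitC. With 0.5 kb in place of 1 kb no named value of at least 1 changed side.

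**Figure D2:**
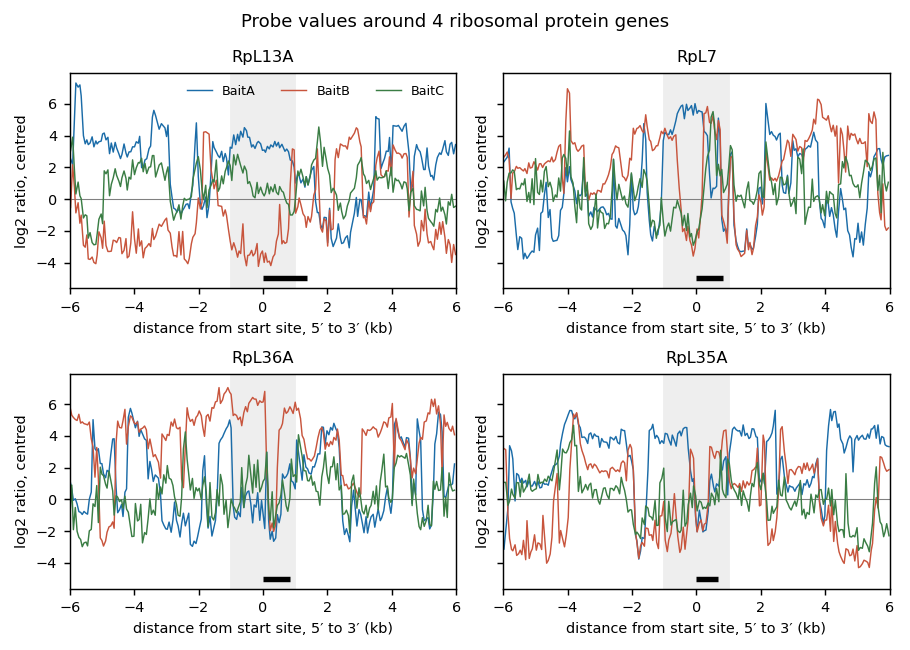
Log2 ratio of each probe, centred on the array median, within 6 kb of the start sites of RpL13A, RpL7, RpL36A and RpL35A in the BaitA, BaitB and BaitC arrays. The grey band is the 1 kb window on each side of the start site and the black bar the transcribed span. Values run in plateaus, such as the BaitA plateau over the start of RpL13A (mean 3.40) and the BaitB one upstream of RpL36A, and all 3 arrays have a peak centred upstream of RpL35A, 3665 to 3720 bp outside its span.

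The start-site windows were also set against the flanks of the same genes, from 2 to 10 kb away. The start site was above its flanks in 44 of 77 members in BaitA, 57.1% beside 53.4% of all genes. In BaitB this held for 35 of 76 members (46.1%, beside 53.3%) and in BaitC for 38 of 77 (49.4%, beside 55.3%). The median start site minus flank was 0.62, -0.11 and -0.06, against 0.13, 0.13 and 0.10 over all genes. RpL26 stood out from its flanks by 3.68 in BaitA and RpL28 by 3.62, while RpL23A differed from its flanks by -3.07 in BaitA and -2.80 in BaitB. In bins of 500 bp over all members the mean level in BaitA just after the start site was 0.72 ± 2.31 (SD over 77 genes), where all genes averaged 0.31 ± 2.05. It was about as high far downstream, 0.71 ± 2.18 from 9000 to 9500 bp, where all genes averaged 0.20 ± 2.12. In BaitC the bin just before the start site averaged 0.06 ± 1.01 in members and 0.28 ± 1.12 in all genes.

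On the arm of a bait, the nearest members were set against other genes at 50 to 200% of their distance, and fell on both sides. The share of such genes below a member ran from 25.1 to 92.5% in BaitA, 27.2 to 88.7% in BaitB and 20.5 to 80.9% in BaitC. In BaitB RpS27A and RpL9 exceeded 85.1% and 78.2% of such genes, and RpL7 27.2%. Members further away were not compared in this way. The member closest to any bait was RpS13 (2L:8363820-8364563), 121 kb from BaitB. It was at 2.22 ± 2.91 in the BaitA array, 6.06 ± 0.42 in BaitB and 0.47 ± 1.23 in BaitC. In BaitB this was the highest level of any member, and 49 genes at 50 to 200% of its distance had a median of 6.44 ± 0.75 (SD over genes), of which 17 were lower than RpS13. RpL36A (2L:8041987-8042825), 442 kb from BaitB, was at -0.14 ± 1.58, 4.50 ± 2.61 and 0.53 ± 1.21, beside a median of 4.47 for 154 such genes in BaitB. RpL13 (2L:9967634-9968421), 1.48 Mb away, was at -0.79 ± 2.26, 3.81 ± 0.89 and 0.45 ± 1.15, higher than 519 of the 585 genes at a like distance (median 2.33).

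RpL35A and RpL13A were the members nearest to both BaitA and BaitC on 3R. RpL35A (3R:1291429-1292096) was 1.20 Mb from BaitA and 0.907 Mb from BaitC. Its level was 1.75 ± 2.18 in BaitA, 0.10 ± 2.61 in BaitB and -0.36 ± 1.15 in BaitC, beside a median of 1.84 for 196 genes at a like distance in BaitA and 0.55 for 161 genes in BaitC. RpL13A, 1.36 Mb from BaitA, was higher than 196 of 212 such genes in that array, and 1.06 Mb from BaitC it was higher than 112 of 188. RpL34b was the next, 5.13 Mb from BaitA and 4.84 Mb from BaitC, with 533 of 832 and 468 of 806 genes below it. Distance from BaitA and BaitC is also distance from the centromere, and these cannot be told apart on 3R.

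**Figure D3:**
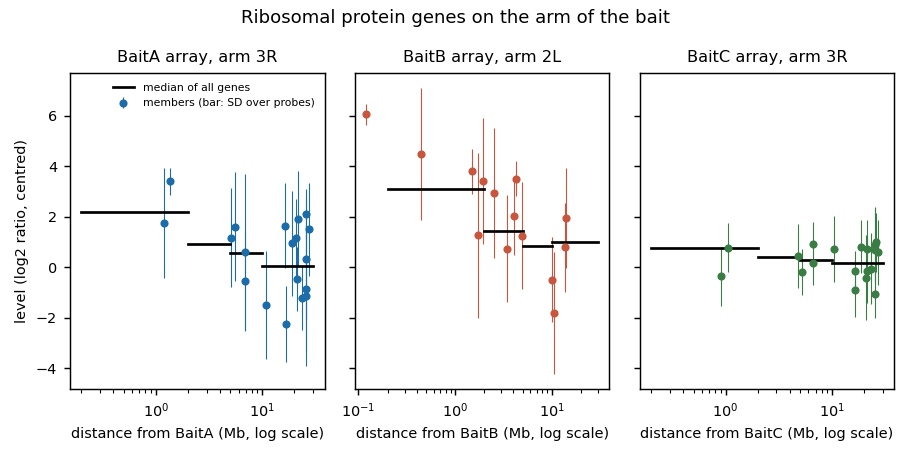
Level (log2 ratio centred on the array median) of the ribosomal protein genes on the arm of the bait, among the 75 drawn singly, against its distance from the bait on a log scale, one panel per array, with bars for the SD over probes. Black lines are the median of all genes in classes of distance from 0.2 to 2, 2 to 5, 5 to 10 and 10 to 30 Mb. BaitB members are highest near the bait, at 6.06 for RpS13, where the line is highest too, and BaitC members beyond 0.2 Mb lie between -1.07 and 0.99.

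On every chromosome arm the exact 95% interval of the share of members above the arm median held the share of all genes there. In BaitA the members of 2R were above in 13 of 18 cases (46.5 to 90.3%) and those of 2L in 7 of 14 (23.0 to 77.0%). The median difference on 2R was 0.80 in BaitA. In BaitB it was 1.10, with 10 of 18 above, while the medians of the other arms ran from -0.21 to 0.46. On X in BaitC 4 of 14 members were above, 28.6% with an exact 95% interval of 8.39 to 58.1%, which holds the 50% of all X genes. The 5 members in the 2 Mb next to a centromere are RpL21, RpL5, RpL38, RpL35A and RpL13A. Of these, 4 were above the arm median in BaitA, beside 67.8% of all genes in that position, 2 in BaitB (54.3%) and 3 in BaitC (56.6%). RpL5 and RpL11, which bind the 5S ribosomal RNA together, are named for that role after their values were seen. RpL5 was at 1.21 ± 2.84, 1.96 ± 1.98 and -0.31 ± 2.04, and RpL11 at 0.17 ± 2.24, -1.18 ± 2.55 and -0.72 ± 1.05. Set against genes within 500 kb on the same arm in place of the whole arm, 47 of 77 members were above the median in BaitA (61.0%, beside 50.2% of all genes), 40 of 76 in BaitB (52.6%, beside 49.9%) and 39 of 77 in BaitC (50.6%, beside 50%).

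The second readout was the authors' peaks. Their deposited tables pair a peak with a gene if it lies inside it, up to 5 kb upstream or up to 1 kb downstream, so a long gene has more room to be paired. Members are short, with a median transcribed span of 791 bp against 1718 bp for all genes, and 73 of them span at most 2 kb. Genes of that length therefore stand beside all genes. With a peak of FDR (false discovery rate, from shuffled values) at most 0.05, 16 of 77 members were paired in BaitA, 20.8% beside 31.4% of all genes and 27.6% of short ones. In BaitB 28 of 76 were paired, 36.8% beside 37.3% and 32.3%. In BaitC 14 of 77 were paired, 18.2% beside 30.9% and 27.1%. The exact 95% intervals of the members' shares, 12.4 to 31.5%, 26.1 to 48.7% and 10.3 to 28.6%, hold the share of short genes in each array. All genes listed were paired with some peak of FDR at most 0.2 in some array, and so were all members.

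Peaks within 1 kb of a start site gave another order. There were 10 such members in BaitA (13.0%, beside 10.7% of all genes and 10.7% of short ones), 12 in BaitB (15.8%, beside 12.5% and 13%) and 3 in BaitC (3.90%, beside 10.4% and 11.2%). The exact 95% interval of the BaitC share, 0.811 to 10.97%, lies below the share of short genes and holds that of all genes, whereas for pairing in BaitC the interval lies below the 30.9% of all genes and holds the share of short ones. At an FDR of at most 0.01 the paired members were 2 in BaitA, 8 in BaitB and 3 in BaitC, or 2.60%, 10.5% and 3.90%, beside 2.61%, 14.5% and 16.9% of all genes. Shares of short genes were not computed at this threshold or at 0.2, so gene length is not allowed for there.

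**Figure D4:**
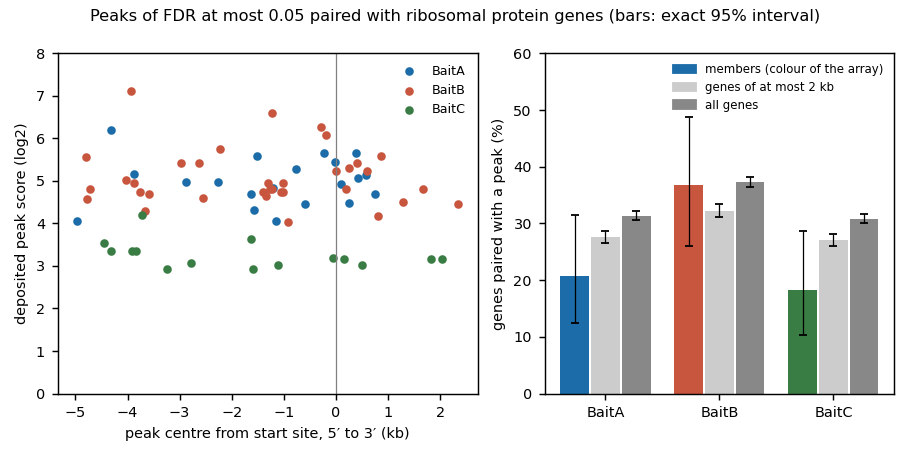
Left, the deposited score of each peak of FDR at most 0.05 paired with one of the 75 ribosomal protein genes drawn singly against the distance of its centre from the nearest start site in kb, with upstream to the left and colours for the arrays. Right, the percentage of members, of genes of at most 2 kb and of all genes paired with such a peak, with exact 95% binomial intervals as bars. Most peaks lie upstream. Pairing reaches 5 kb upstream and 1 kb downstream, and whether this accounts for their positions was not tested. Members are at 20.8%, 36.8% and 18.2%.

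RpL35A was the one member paired with a peak in all 3 arrays, 1 of 76 beside 5.37% of all genes. Its peak lay at 3R:1295816-1296120 in BaitA, 3R:1295761-1295955 in BaitB and 3R:1295816-1296070 in BaitC, 3665 to 3720 bp outside its span. The positions fall inside mRpL44 (3R:1295282-1296300), a mitochondrial ribosomal protein gene, to which each peak was paired as well, together with Snr1 and POLDIP2. Probes in each array's peak averaged 5.36 ± 0.22 in BaitA, 5.22 ± 0.25 in BaitB and 3.75 ± 0.54 in BaitC. The start-site window of RpL35A itself had a level above its arm median in BaitA alone, so that the shared peak and the gene's own level did not go together.

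Exactly 2 arrays paired 12 members, 1 array paired 31 and none paired 32. The last is 42.1% of members, beside 32.3% of all genes, which are longer. The share of short genes paired in none was not computed, nor the share of all genes paired in exactly 2 arrays or in 1. These counts therefore do not tell members from other genes. RpL7A had peaks at the same place inside its span in BaitA (X:6425658-6425917, mean 4.85 ± 0.48) and BaitB (X:6425598-6425870, 4.67 ± 0.59). RpS6, the substrate of S6 kinase, had overlapping peaks upstream of its start and reaching into bys in BaitA and BaitB, at X:7795649-7796088 and X:7795649-7796748. RpL14 and RpL23 had overlapping upstream peaks in BaitB and BaitC. These genes were chosen for their overlapping peaks and lie outside the extremes by level.

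A peak overlapping the gene's own span was held by 6 members in BaitA (7.79%, beside 14.6% of all genes and 7.63% of short ones). In BaitB there were 9 (11.8%, beside 17.4% and 9.66%) and in BaitC 3 (3.90%, beside 14.2% and 8.04%). The members are nearer to the short genes than to all genes in each array. In BaitB RpL36A carried 3 peaks, of which the highest, 1037 bp outside its span (2L:8043862-8044251), averaged 6.65 ± 0.38. RpL39 and RpL12 shared a BaitB peak inside the RpL39 span (2R:19949561-19949876) that averaged 5.08 ± 0.36, against -0.97 in BaitA and 0.43 in BaitC. In BaitA the RpS3A span held a peak (4:87134-87340) that averaged 4.90 ± 0.21, against -1.43 in BaitB. The low member RpS28a had the BaitC peak with the highest deposited score of any member, 4.20, though not the highest probe mean. It lay 3222 bp outside the span at 3R:25851542-25852544 and averaged 3.87 ± 0.60, against -3.06 in BaitA. A low level at the start site and a peak a few kb away thus occurred together.

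Other genes of translation and of protein turnover were measured in the same way. The 68 mitochondrial ribosomal protein genes had median differences of 0.19 in BaitA, 0.13 in BaitB and 0.21 in BaitC, with 37 of 68, 36 of 67 and 38 of 68 above the arm median. By difference the highest of them in BaitA was mRpL44, at a level of 2.99, the gene that holds the peak shared near RpL35A. The 41 proteasome genes had medians of -0.38, -0.35 and -0.02, and 18, 18 and 20 were above. In BaitA the median of the proteasome genes was thus below the arm median and that of the cytosolic ribosomal protein genes above it, at -0.38 and 0.56. The exact intervals of the share above the arm median were 28.5 to 60.3% and 49.2 to 71.95%. These intervals overlap and both hold 50%, so this count does not tell the lists apart. Within 5 kb of the start sites the 0.56 fell to 0.07. The proteasome gene Rpt6R was the lowest of its list by difference in BaitA and BaitB, at levels of -2.17 and -2.36.

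Factors that work with the ribosome had list medians from -0.31 to 1.03. The 40 initiation factor genes had medians of -0.14, 0.00 and -0.07, with 19 of 39, 20 of 40 and 18 of 38 above. Among them eIF3f1, at 3R:538964-539807 between BaitC and RpL35A, was at 3.72 in BaitA, the highest of that list by difference. In BaitC, where it lies within 200 kb of the bait, eIF3f1 was at 3.25. The 29 genes of ribosome assembly and ribosomal RNA synthesis had medians of -0.31, 0.24 and -0.03, with 12, 16 and 14 above. In BaitB pes, a factor for processing ribosomal RNA that lies 494 kb from the bait, was at 5.36. In BaitA bys, next to RpS6 on X, was the highest of this list by difference, at a level of 2.25. The 6 elongation and release factor genes had medians of 1.03, 0.08 and 0.02. By difference eEF1delta, on 2L, was the highest of these in BaitA, at a level of 3.27. The lowest was eEF1alpha1, which carries aminoacyl-tRNA to the ribosome, at -1.14.

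**Figure D5:**
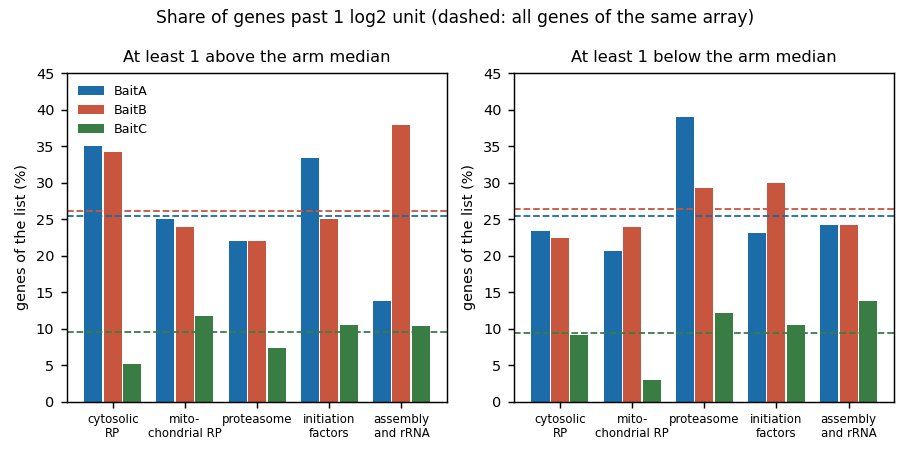
Percentage of genes at least 1 log2 unit above (left) or below (right) the median of their arm in each array, for the 77 cytosolic ribosomal protein genes and 4 other lists, with dashed lines for all genes of the same array. Cytosolic ribosomal protein genes are at 35.1%, 34.2% and 5.19% on the left against 25.5%, 26.1% and 9.54% for all genes, and the other lists scatter to both sides of the lines.

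The 6 genes whose current symbol meets the rule but that the tables hold under another name lay on both sides of their arm medians in each array. RpS2, listed as sop, was at 0.30 in BaitA, 3.89 in BaitB and 0.46 in BaitC. RpS21, listed as oho23B, was at 2.41, 2.33 and -0.10, and RpL10, listed as Qm, at 0.80, 1.92 and 0.01. RpL22-like was at 3.24, -0.75 and 0.40, beside the RpL22 levels of -2.04, -2.05 and -0.84 given above. RpL24-like was at -0.91, 0.53 and 1.15, and RpL7-like at -1.39, 1.26 and 0.13.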

How the data were processed

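The authors deposited, for each of the 3 arrays, a log2 ratio of Cy5 over Cy3 for 2157868 probes at a median step of 55 bp. The log base is not written in the files and base 2 was assumed, and how the authors centred these values is not stated there. Peaks were called per array with NimbleScan, per the file headers, and carry a log2 score and an FDR, a q-value from shuffled values. The authors' deposited tables link those with an FDR of at most 0.2 to nearby transcripts and start sites, with all other positions in bp, and list spans without exons. The build is not named, and the arm lengths are those of Release 5. Gene names were brought up to date by accession from a RefSeq table of Release 6 (16169 of 17767 accessions matched), used for names alone.

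From these files the level of a gene with at least 5 probes was computed with Python 3.11.15, numpy 2.4.6 and pandas 2.3.3, and exact binomial intervals with scipy 1.17.1. The computation was tested on simulated probe values with known shifts. With 1 array per bait no test between baits was possible, and shares stand beside those of all genes. Intervals cover counting only, and genes on 1 array are not replicates. The depth of each channel is unknown.

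The members, the other lists and the rule for named genes were chosen with earlier results of these data known. The rule named the 5 highest and 5 lowest members in each array and by mean difference, the 3 nearest to each bait, members with a peak in every array, those on chromosome 4, and paralogue pairs. The RefSeq table has 92 symbols that meet the rule, of which 77 are members. Alternatives changed the window, centring, zone, summary, start site, probe minimum, comparison genes, member list and FDR. Per-sample columns without a sample numbered 0. Values of 2 members are not reported singly here, though all counts and medians include them, and their pair is left out of the paralogue counts.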

Additional observations from a re-analysis of the deposited data

How the results depend on the processing

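Of 153 alternative values of the counts and shares, 127 were classed as near the reported value and 26 as moved. The moves came chiefly with the window and the peak threshold. Part of the 127 tested nothing, because centring on other arms cancels in the differences and no member name ends in -like. Every member had at least 34 probes, so dropping the minimum of 5 added no member. The class of near values was also wide. In BaitA it took in 36 members at least 1 above with the median of probes, beside 27 reported. It also took in a share above the arm median of 53.2% within 5 kb, beside 61.0% reported. The percentage of members above the arm median ran from 53.2 to 62.3% in BaitA, from 48.7 to 57.9% in BaitB and from 41.6 to 58.4% in BaitC over all alternatives. Within 0.5 kb of start sites, members at least 1 below were 27 in BaitB (35.5%, beside 31.0% of all genes) and 12 in BaitC (15.6%, beside 14.6%), and 7 were at least 1 above in BaitC (9.09%, beside 14.5%). Within 2 kb, 16 were above in BaitA (20.8%, beside 19.0%), and in BaitC 2 were above (2.60%, beside 4.70%) and 3 below (3.90%, beside 4.51%). Within 5 kb, 5 were above in BaitA (6.49%, beside 10.4%) and 8 below (10.4%, beside 10.7%). In BaitB 15 were then above (19.7%, beside 11.0%) and 4 below (5.26%, beside 11.1%), and in BaitC 1 above (1.30%, beside 1.18%) and 0 below (beside 1.52%). A wider window narrows the spread of all genes too. At 5 kb, 59.6% of members on other arms were above the arm median in BaitC, beside 50% of all genes there, and 100% of the 5 centromere-proximal ones in BaitA, beside 77.8%. Members paired with a peak were 2, 8 and 3 at FDR 0.01. At FDR 0.2 they were 52, 56 and 35 (67.5%, 73.7% and 45.5%, beside 69.9%, 71.5% and 59.7% of all genes), and within 1 kb of a start site 10, 12 and 3.

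Of 357 alternative values for single genes, 44 changed sign, 32 of them within 5 kb, and 23 moved by at least the SD over probes. In 10 of the sign changes, all within 5 kb, the reported difference was at least 1 in size. These were, in BaitA, RpL23A 0.0089, RpL17 -0.26, RpL30 -0.42, RpS16 0.11, RpS13 -0.28 and RpL37a 0.64, in BaitB RpS16 0.21, RpL40 -1.15 and RpS15Ab -0.032, and in BaitC RpS28a 0.16. The cause was not tested. Centring on the arms without the bait moved every level by the same amount and cancelled in the differences. No member has a name ending in -like, so leaving these out changed nothing. No paired analysis was possible because each bait had 1 array.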
